A study of Mus musculus with 32 samples.

Results

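The genes described here are 38 genes of the neuronal cytoskeleton, the synapse and their control in neurons, followed in mouse embryonic stem cells as they differentiated. They were matched by gene symbol, a rule that uses no level or difference, and all 38 were found among the 20612 genes listed in any library. The list itself was chosen with earlier results of these data known, so counts of members called are not those of an unselected list. They fall into 6 groups by role: microtubule genes, intermediate filament genes, RNA-binding protein genes, vesicle release genes, adhesion and growth cone genes, and transcription factor genes. RNA was sequenced from J1 cells, an embryonic stem cell (ESC) line of strain 129S4/SvJae, and from cells derived from them. The treatments were bisphenol A (BPA), bisphenol F (BPF) and bisphenol S (BPS), each at 100 nM, and dimethyl sulfoxide (DMSO), the vehicle. Each of the 4 treatments was sampled once at each of 8 stages, which gave 32 libraries. ESCs (day 0) and day-4 embryoid bodies (EBs), which are clumps of differentiating cells grown in suspension, were common to both branches, EBs of days 6, 9, 12 and 20 formed the global branch, and day-8 EBs that had spent 4 days with retinoic acid (RA EBs) and monolayer neural progenitor cultures (NPCs) of day 10 formed the neural branch. All libraries come from this 1 cell line, and the labels name no replicate cultures, so p-values measure only the spread between these libraries.

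A neuron builds its axon and dendrites on bundled microtubules and on neurofilaments, and it releases transmitter when SNARE proteins on synaptic vesicles and on the cell membrane pull the membranes together. In non-neuronal cells many genes of this machinery are held down by the repressor REST, which binds a DNA element known as RE1, and RNA-binding proteins of the Hu, Celf and Rbfox families shape neuronal transcripts once the genes are on. The early neuronal tubulin and doublecortin are commonly used as marks of young neurons, whereas synaptic vesicle proteins accumulate as neurons mature.

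Levels are given in FPKM (fragments scaled for transcript length and for the reads of the library, as the authors deposited them), and a gene that was not listed in a library counts as 0. The libraries held 9574833 to 11070149 expected counts each. All 38 genes passed the expression filter of 1 CPM (counts scaled to library size) in at least 4 libraries, which kept 15632 genes. Differences are log2 values ± SE from edgeR's quasi-likelihood test with Benjamini-Hochberg adjustment over all genes tested; a stage difference was called at an adjusted p under 0.05 and an absolute log2 difference of at least 1, and a treatment difference at an adjusted p under 0.05. The summed level of 8 pluripotency markers fell to 60.9 to 88.1 FPKM in EBs of day 20, against 2038 to 2112 FPKM in ESCs. The summed level of 10 neural progenitor markers was 985 to 1124 FPKM in the NPC libraries and 999 to 1054 FPKM in RA EBs, with 966 to 1180.1 FPKM in EBs of day 20 and 378 to 405 FPKM in ESCs. In EBs of day 12 this sum was 1594 to 2035 FPKM, above all of these. The markers did not move together: in NPCs against RA EBs, Fabp7 averaged 265 against 15.8 FPKM, Sox1 4.98 against 19.3 FPKM and Sox3 24 against 83 FPKM. In bulk RNA, fewer cells of a type and less RNA per cell cannot be told apart.

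Onset was taken as the first stage of a branch at which all 4 libraries reached 1 FPKM. By this measure 15 of the 38 genes were already on in ESCs: Tubb3, Mapt, Stmn2, Stmn3, Ina, Nefl, Nefh, Prph, Elavl2, Stx1a, Vamp2, Syn1, Sv2a, Gap43 and Ncam1. Another 6 came on in EBs of day 4, which were Map2, Stmn4, Nefm, Elavl3, Syp and Bcl11a. In the global branch 2 more (Elavl4 and Nrcam) came on at day 6, 8 at day 9 (Dcx, Rbfox3, Celf4, Snap25, L1cam, Myt1, Scrt1 and Scrt2), 3 at day 12 (Syt1, Syt4 and Bcl11b) and 4 at day 20 (Syn2, Nlgn1, Chl1 and Myt1l). In the neural branch 12 genes came on in RA EBs and the remaining 5 (Syn2, Nlgn1, Chl1, Myt1l and Bcl11b) in NPCs. The number already on in ESCs was 17 at a threshold of 0.5 FPKM, 12 at 2 FPKM and 9 at 5 FPKM. The mean level was highest at day 20 for 31 of the 38 genes within the global series of stages, and in NPCs for 37 of the 38 within the neural series. The shares of all genes on in ESCs, or highest at these stages, were not derived. These counts thus describe the members without a background. Early detection did not run on into later stages for every gene: Mapt, Stmn4, Nefh, Elavl3 and Ncam1 in the global branch, and Mapt, Nefh, Prph and Ncam1 in the neural branch, were under 1 FPKM in all 4 libraries of at least 1 later stage.

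**Figure D1:**
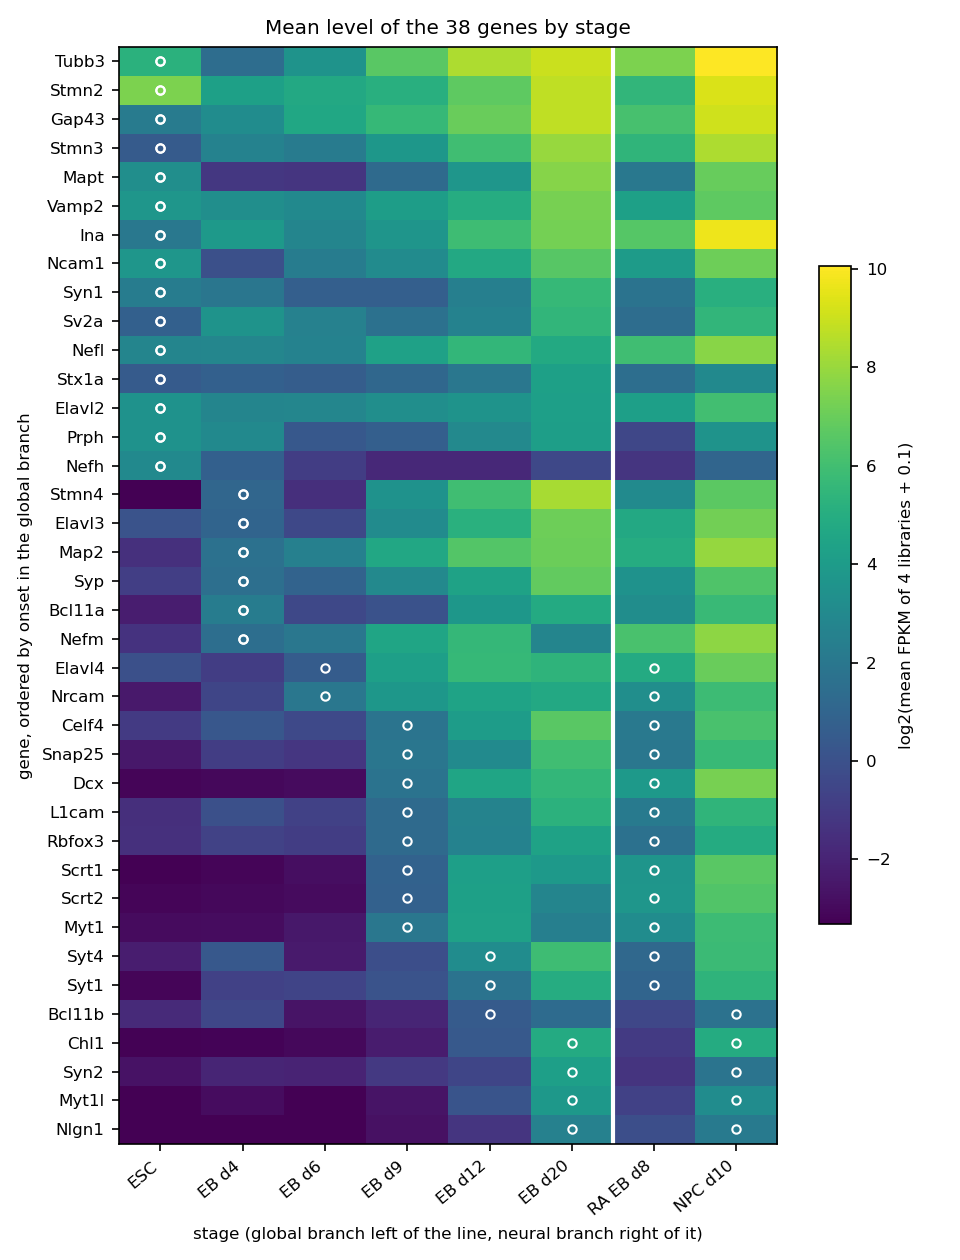
Mean level of the 38 genes at each stage, as log2(mean FPKM + 0.1) over the 4 libraries, with stages across. Genes run down the page by stage of onset in the global branch, then in the neural branch, then by level at day 20. A white line divides the global from the neural stages and a circle marks the stage of onset. Most genes are brightest in EBs of day 20 and in NPCs, while Tubb3, Mapt, Stmn2 and Ncam1 show an earlier bright cell in ESCs.

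RE1-like sequence was looked for in the promoters since the repressor REST binds it at many neuronal genes; the gene itself was lower in later stages. Rest had 26.1 to 28.2 FPKM in ESC libraries, 8.24 to 11.8 in EBs of day 4, 2.45 to 4.2 at day 12 and 2.28 to 3.62 at day 20, and 2.43 to 3.14 in RA EBs and 1.16 to 1.63 in NPCs. The step between ESCs and EBs of day 4 was a log2 difference of -1.47 ± 0.12, adjusted p = 3.71e-12. RefSeq promoters of build GRCm38.p6, from 250 bases before to 50 bases after the start of a gene, were at hand for 24 of the 38 members and 27025 genes in all. The motif searched on both strands was the left and right part of RE1, CAGCACC and GGACAG, with 2 bases between them. A gene counted as matched if any of its promoters matched, and some genes had several promoters (Elavl2 had 6). With at most 1 mismatch the motif stood in 0.211% of all genes with a promoter and in 1 member, Syn1. With at most 2 mismatches it stood in 2.22% of these genes and in 2 of 24 members (8.33%), Prph and Syn1. Both promoters are shown because they alone matched within 2 mismatches; capitals mark the matching window, and each reads 5′ to 3′ on the strand of the gene. Syn1 (synapsin, a protein that tethers vesicles) lies on the minus strand at chrX:20920869-20921168, with the window starting at -230 from the start site. Prph (peripherin, a filament protein of peripheral neurons) lies on the plus strand at chr15:99054924-99055223, with the window starting at -172.
Syn1: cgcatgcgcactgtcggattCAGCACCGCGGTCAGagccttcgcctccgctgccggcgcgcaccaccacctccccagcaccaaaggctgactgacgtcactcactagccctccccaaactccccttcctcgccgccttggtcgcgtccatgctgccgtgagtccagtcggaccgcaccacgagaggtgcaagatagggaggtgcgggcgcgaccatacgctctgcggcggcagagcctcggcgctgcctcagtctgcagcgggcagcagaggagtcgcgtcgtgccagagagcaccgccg
Prph: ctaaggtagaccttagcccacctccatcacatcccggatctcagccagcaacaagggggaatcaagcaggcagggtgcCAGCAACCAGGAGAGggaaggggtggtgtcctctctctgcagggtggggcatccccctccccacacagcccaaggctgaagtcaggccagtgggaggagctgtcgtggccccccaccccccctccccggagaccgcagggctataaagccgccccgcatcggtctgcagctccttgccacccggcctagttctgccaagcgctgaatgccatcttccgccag
E-boxes of 6 bases, the kind of site bound by proneural transcription factors, were counted on both strands of the same windows, and no pair of them can match at the same place. Counted per gene over all of its promoters, CAGCTG stood in 8 of 24 members (33.3%) and 18.3% of all genes with a promoter. CAGGTG stood in 5 members (20.8%) and 22.6% of these genes, and CAGATG in 5 (20.8%) and 19.2%. A gene with several promoters had more chances to match. These matches are a description of letters only and were not tested.

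The 7 microtubule genes included the most abundant gene of the list per length. Positions below are those of RefSeq on build GRCm38.p6. Tubb3 spans chr8:123411553-123422015. Tubb3, the neuron-enriched beta-tubulin, stood at 34.6 to 39 FPKM in ESCs, 2.48 to 2.73 in EBs of day 4, 11.2 to 12.1 at day 6, 64.5 to 148 at day 9, 291 to 425 at day 12 and 459 to 548 at day 20, with 149.7 to 201 in RA EBs and 1040.2 to 1103 in NPCs. Its 4 ESC libraries thus lay above all libraries of days 4 and 6, and the step to day 4 was a log2 difference of -3.79 ± 0.20, adjusted p = 4.08e-16. Stmn2, a stathmin of growing axons, had the same early dip: 162 to 181 FPKM in ESCs, 17.7 to 20.4 at day 4, 21 to 32.9 at day 6, 27.4 to 46.8 at day 9, 92.1 to 121 at day 12 and 390.2 to 488 at day 20, with 41 to 48.4 in RA EBs and 581 to 692 in NPCs. Mapt, which encodes the axonal microtubule protein tau, had 8.69 to 10.2 FPKM in ESCs and 0.28 to 0.42 at day 4, then 1.78 to 3.11 at day 9, 11.3 to 14.9 at day 12 and 168 to 222 at day 20. Its largest rise thus came last, with a log2 difference of 3.82 ± 0.12, adjusted p = 1.05e-20 between days 20 and 12.

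Dcx, the microtubule binder of migrating young neurons, was at or under 0.06 FPKM in every library through day 6. It then had 2.66 to 4.14 FPKM at day 9, 19.1 to 28.4 at day 12 and 34.9 to 62.4 at day 20, and 13.8 to 16.9 in RA EBs and 147 to 168 in NPCs. The libraries of these groups did not overlap with those of earlier stages, and the difference was 6.29 ± 0.31, adjusted p = 1.23e-15 between days 9 and 6 and 8.79 ± 0.30, adjusted p = 5.07e-21 between RA EBs and EBs of day 4. Map2, which stabilises microtubules in dendrites, came on earlier, with 0.14 to 0.37 FPKM in ESCs, 2.93 to 3.33 at day 4, 4.54 to 6.23 at day 6, 20.5 to 31.3 at day 9, 69.1 to 109.8 at day 12 and 113 to 156 at day 20. Its NPC libraries held 233 to 260.5 FPKM, above all EB libraries. The other stathmins, which bind free tubulin, differed in their start. Stmn3 had 1.24 to 1.5 FPKM in ESCs, 224 to 285 at day 20 and 324 to 362 in NPCs. Stmn4 had 1.94 to 2.14 FPKM at day 4 and was not listed in any ESC library (unlisted genes were set to 0), at least 38.9-fold higher at day 4 against a floor of 3 counts over the group. Stmn4 dipped to 0.07 to 0.63 FPKM at day 6 (log2 difference against day 4 -2.80 ± 0.51, adjusted p = 3.98e-05), and reached 274 to 404 FPKM at day 20. It was lower in NPCs (90.3 to 112 FPKM) than at day 20, by a log2 difference of -1.36 ± 0.17, adjusted p = 3.95e-08.

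**Figure D2:**
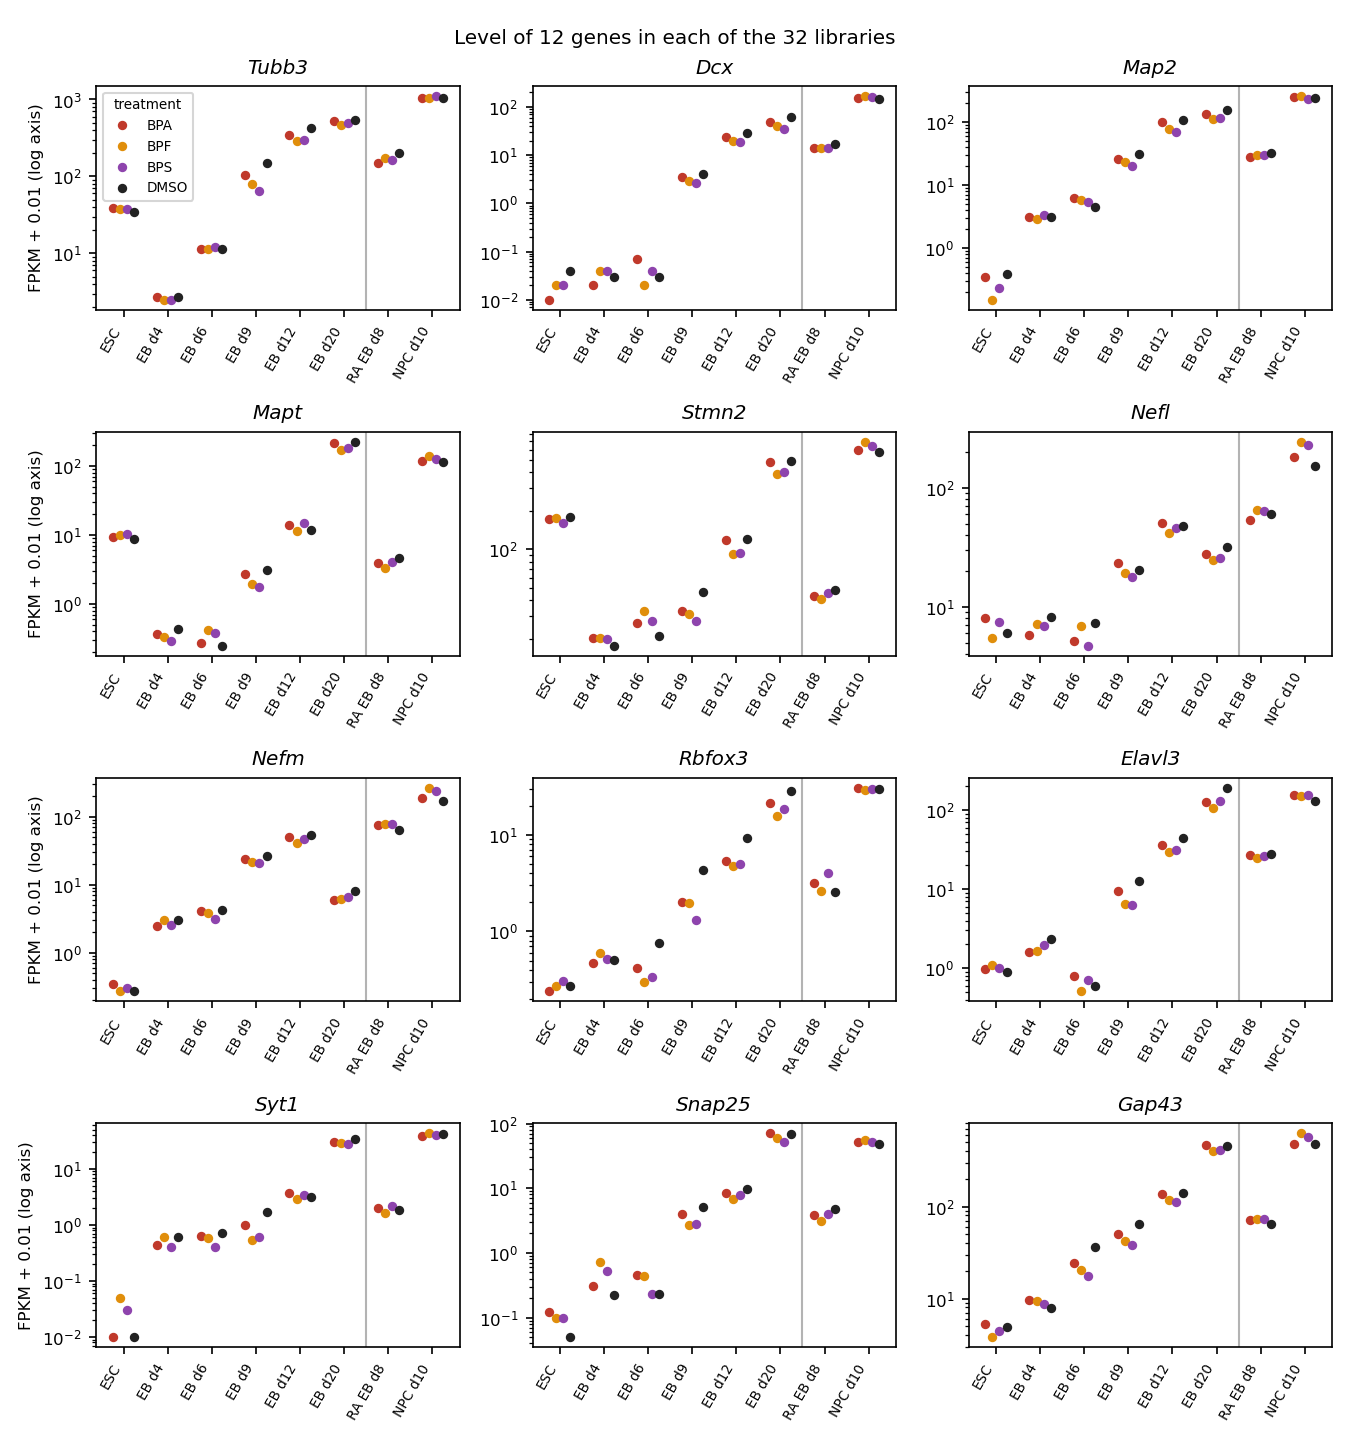
Level of 12 genes in each library (FPKM + 0.01 on a log axis), by stage and with the treatments as separate points. Tubb3, Mapt and Stmn2 show high ESC points followed by lower ones at day 4, Dcx appears at day 9 with 2.66 to 4.14 FPKM, and Nefm sits lower at day 20 than at day 12.

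Among the 5 intermediate filament genes, Nefl and Nefm had lower levels in EBs of day 20 than of day 12. Nefl (chr14:68083863-68089095) and Nefm (chr14:68119545-68125004) lie close together on build GRCm38.p6. Nefl, the light subunit on which neurofilaments assemble, had 5.47 to 8.11 FPKM in ESCs, 5.81 to 8.27 at day 4, 4.73 to 7.32 at day 6, 17.8 to 23.6 at day 9, 41.5 to 51.1 at day 12 and 25 to 31.9 at day 20, with 54 to 65.4 in RA EBs and 154 to 243 in NPCs. Nefm, the medium subunit, had 0.26 to 0.34 FPKM in ESCs, 2.43 to 3.04 at day 4, 3.17 to 4.26 at day 6, 21.1 to 26.1 at day 9, 41.5 to 53.7 at day 12 and 5.97 to 8.2 at day 20, with 64.4 to 79.1 in RA EBs and 173 to 268 in NPCs. All 4 day-20 libraries were thus below all 4 day-12 libraries for both subunits. The difference between days 20 and 12 was -2.94 ± 0.14, adjusted p = 1.34e-17 for Nefm and, short of the size needed for a call, -0.86 ± 0.14, adjusted p = 2.52e-06 for Nefl. NPCs exceeded EBs of day 20 by 5.22 ± 0.14, adjusted p = 3.99e-22 for Nefm and 3.10 ± 0.14, adjusted p = 1.23e-17 for Nefl, and Nefm had the largest such difference of the list. Nefh, the heavy subunit of mature axons, was highest in ESCs with 7.65 to 8.85 FPKM and was at 0.17 to 0.24 FPKM at day 12, 0.51 to 0.9 at day 20 and 1.49 to 2.53 in NPCs. Ina (alpha-internexin, a filament protein of young central neurons) had 3.73 to 4.76 FPKM in ESCs, 49.2 to 64.3 at day 12 and 124 to 203 at day 20, and 82.8 to 107 in RA EBs and 778 to 879.7 in NPCs, with NPCs above day 20 by 2.67 ± 0.14, adjusted p = 2.24e-16. Prph had 10.4 to 12.1 FPKM in ESCs, 5.48 to 11.3 at day 4, 0.84 to 1.35 at day 6 and 0.46 to 0.89 in RA EBs, and returned to 12.1 to 26.5 at day 20 and 9.56 to 14.8 in NPCs. The RA EB libraries of Prph lay below all day-4 libraries (log2 difference -3.66 ± 0.30, adjusted p = 5.93e-12), as did those of Nefh (-2.37 ± 0.20, adjusted p = 1.45e-11).

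The 5 RNA-binding protein genes started from different floors. Elavl2, a Hu protein also found in germ cells, was on throughout, with 10.4 to 11.8 FPKM in ESCs, 15.1 to 22.1 at day 20 and 59.7 to 73 in NPCs, and none of its global steps reached a call. Elavl3, a neuronal Hu protein, had 0.88 to 1.1 FPKM in ESCs, 1.58 to 2.3 at day 4, 0.5 to 0.79 at day 6, 6.38 to 12.8 at day 9, 29.2 to 44.5 at day 12 and 106 to 192 at day 20, with 24.8 to 27.8 in RA EBs and 132 to 156 in NPCs. Elavl4, the Hu protein HuD, had its called global steps between days 4 and 12 and stood at 31.6 to 52.2 FPKM at day 20 and 40.1 to 66.2 at day 12, which overlap. Rbfox3, the splicing factor detected by antibodies to NeuN, had 0.23 to 0.3 FPKM in ESCs, 0.46 to 0.59 at day 4, 0.29 to 0.75 at day 6, 1.29 to 4.28 at day 9, 4.7 to 9.25 at day 12 and 15.7 to 28.3 at day 20, with 2.54 to 4.02 in RA EBs and 29.3 to 30.7 in NPCs. Its NPC libraries spanned a narrow range above every EB library, but the NPC to day-20 difference of 0.69 ± 0.21, adjusted p = 0.00399 was under the size needed for a call. Celf4, an RNA-binding protein of excitatory neurons, reached 72.8 to 76.2 FPKM in NPCs and 79.8 to 125 at day 20.

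The 9 vesicle release genes all had their highest EB level at day 20. Syt1, the calcium sensor of fast release, had 0 to 0.04 FPKM in ESCs, 0.4 to 0.61 at day 4, 0.39 to 0.7 at day 6, 0.52 to 1.71 at day 9, 2.95 to 3.72 at day 12 and 28.3 to 34.8 at day 20, with 1.61 to 2.16 in RA EBs and 38.1 to 42.9 in NPCs. Snap25, a membrane SNARE, had 0.04 to 0.11 FPKM in ESCs, 0.21 to 0.72 at day 4, 0.22 to 0.44 at day 6, 2.68 to 5.19 at day 9, 6.87 to 9.65 at day 12 and 51.2 to 70.3 at day 20, with 3.08 to 4.81 in RA EBs and 48.7 to 55.7 in NPCs. Syp (synaptophysin, an abundant vesicle membrane protein) had 0.15 to 0.68 FPKM in ESCs, 1.98 to 3.36 at day 4, 1.19 to 2.46 at day 6, 5.44 to 11.8 at day 9, 17.1 to 24.3 at day 12 and 105 to 120.0 at day 20, with 10.4 to 11.9 in RA EBs and 76.2 to 86 in NPCs. For each of these 3 genes the day-20 libraries lay above all earlier EB libraries, with differences between days 20 and 12 of 3.09 ± 0.17, adjusted p = 6.54e-16 for Syt1, 2.81 ± 0.15, adjusted p = 6.35e-16 for Snap25 and 2.34 ± 0.16, adjusted p = 1.78e-13 for Syp. Of the synapsins, Syn2 was lower in NPCs than at day 20. Syn2 had 3.38 to 3.6 FPKM in NPCs and 17.3 to 21.5 at day 20, with 0.24 to 0.4 in RA EBs and 0.47 to 0.69 at day 12. Its NPC to day-20 difference was -2.23 ± 0.17, adjusted p = 1.44e-12, the lowest of the list. Syn1 had 32 to 36 FPKM in NPCs and 44.4 to 55.1 at day 20, a difference of -0.33 ± 0.09, adjusted p = 0.00179 that was not called. Stx1a, the SNARE partner of Snap25, was also lower in NPCs (6.56 to 9.72 FPKM) than at day 20 (14.6 to 22.1 FPKM), at the edge of the size threshold (-1.001 ± 0.13, adjusted p = 1.06e-07).

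Vamp2, the vesicle SNARE, was detected from ESCs on (12.3 to 13.5 FPKM) and had 147 to 171 FPKM at day 20 and 101 to 113 in NPCs. Sv2a, a vesicle glycoprotein, had an early peak, with 1.35 to 1.87 FPKM in ESCs, 11.2 to 12.4 at day 4, 5.45 to 6.12 at day 6 and 2.53 to 3.97 at day 9, before 39.5 to 53.8 at day 20. Its RA EB libraries held 2.35 to 2.83 FPKM, lower than at day 4 by a log2 difference of -2.25 ± 0.11, adjusted p = 4.18e-17. Syt4, a synaptotagmin of dense-core vesicles, peaked in the same way at day 4 (0.96 to 1.42 FPKM, against 0.05 to 0.19 in ESCs) and fell to 0.02 to 0.19 FPKM at day 6, a log2 difference of -3.40 ± 0.38, adjusted p = 9.71e-09 against day 4. It reached 52.7 to 61 FPKM in NPCs and 44.6 to 75.8 at day 20.

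Of the 6 adhesion and growth cone genes, Gap43, a growth cone protein of extending axons, was the most abundant per length. It had 3.8 to 5.23 FPKM in ESCs, 7.97 to 9.65 at day 4, 17.4 to 36.7 at day 6, 38.2 to 65.2 at day 9, 113 to 140.4 at day 12 and 402 to 472 at day 20, with 64.1 to 73.3 in RA EBs and 480.1 to 624 in NPCs. Ncam1, a neural cell adhesion molecule, had 12.1 to 13.7 FPKM in ESCs, 0.71 to 0.94 at day 4, 3.81 to 5.6 at day 6, 7.26 to 10.8 at day 9, 22.7 to 28.2 at day 12 and 90.9 to 99.2 at day 20, with 15.3 to 18.3 in RA EBs and 129.5 to 148 in NPCs; like Tubb3 and Mapt it was lower at day 4 than in ESCs, by a log2 difference of -3.89 ± 0.14, adjusted p = 4.84e-20. The 3 genes of the L1 family of adhesion molecules came on at different EB stages at the threshold of 1 FPKM, Nrcam at day 6, L1cam at day 9 and Chl1 at day 20. At a threshold of 0.5 FPKM, Nrcam and L1cam were both past it at day 4, and in the neural branch both came on in RA EBs at 1 FPKM. Nrcam had 0.05 to 0.12 FPKM in ESCs, 3.27 to 4.68 at day 6 and 23.7 to 33.6 at day 20. L1cam had 0.07 to 0.36 FPKM in ESCs, 0.7 to 0.99 at day 4, 0.31 to 0.69 at day 6, 1.92 to 3.03 at day 9, 5.39 to 6.75 at day 12 and 34.7 to 41.5 at day 20, with 4.22 to 4.6 in RA EBs and 42.6 to 43.5 in NPCs. Chl1 was at 24.9 to 32.5 FPKM at day 20 and 0.45 to 1.72 at day 12, and at 26.3 to 33.7 in NPCs and 0.23 to 0.65 in RA EBs. Its log2 differences of 4.46 ± 0.22, adjusted p = 7.56e-17 between days 20 and 12 and 6.33 ± 0.26, adjusted p = 3.12e-19 between NPCs and RA EBs were among the largest of those steps. Nlgn1, a postsynaptic adhesion protein, was not listed in any library through day 6, and was at 0.03 to 0.1 FPKM at day 9, 4.42 to 7.35 at day 20 and 3.85 to 4.86 in NPCs. Its RA EB libraries, with 0.67 to 0.92 FPKM, were at least 56.3-fold higher than EBs of day 4 against a floor of 3 counts over the group.

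The 6 transcription factor genes divided by timing. Scrt1 (chr15:76516203-76522129) and Scrt2 (chr2:152081529-152095802), Scratch-family zinc finger repressors of newborn neurons, and Myt1, a zinc finger factor of neuronal commitment, were at or under 0.12 FPKM in every library through day 6. Scrt1 then had 1.12 to 2.97 FPKM at day 9, 15.3 to 26.5 at day 12 and 9.97 to 22.9 at day 20. Scrt2 had 1.12 to 2.72, 15.8 to 28.4 and 4.75 to 9.89 FPKM, and Myt1 2.62 to 5.9, 14.4 to 27.6 and 4.34 to 8.27 FPKM, at those days. Scrt2 and Myt1 fell between day 12 and day 20, with no overlap between their libraries and log2 differences of -1.67 ± 0.21, adjusted p = 3.43e-08 and -1.92 ± 0.20, adjusted p = 1.6e-09; Scrt1 did not pass (-0.46 ± 0.21, adjusted p = 0.0538). In NPCs these 3 genes were at 90.6 to 105 (Scrt1), 72.6 to 103 (Scrt2) and 52.9 to 61 FPKM (Myt1), above every EB library. Myt1l, the related factor that represses non-neuronal genes, moved in the other direction at the end: it had 10.9 to 18.8 FPKM at day 20 and 0.78 to 1.45 at day 12 (log2 difference 3.68 ± 0.19, adjusted p = 1.46e-15), and 8.84 to 9.2 in NPCs. Bcl11a, a zinc finger factor of cortical and spinal neurons, had an early pulse, with 0.03 to 0.25 FPKM in ESCs, 4.29 to 5.62 at day 4, 0.13 to 1.02 at day 6, 11 to 16.1 at day 12 and 25.8 to 34.5 at day 20, and 47.8 to 61.8 in NPCs. Bcl11b, its paralogue in deep-layer cortical neurons, stayed at or under 3.77 FPKM in all libraries.

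Step by step, 17 of the 38 genes rose and 5 fell between ESCs and EBs of day 4 (median log2 difference 0.89), where 14.2% of all genes tested were called higher and 13.3% lower. At day 6 against day 4, 5 rose and 11 fell (median -0.26), with 10.4% of all genes higher and 8.55% lower. The genes that fell at day 6 were led by Syt4 (-3.40 ± 0.38), Bcl11b (-3.17 ± 0.30), Bcl11a (-3.02 ± 0.22) and Stmn4 (-2.80 ± 0.51). At day 9 against day 6, 26 rose and 1, Nefh (-1.15 ± 0.24, adjusted p = 0.000262), fell (median 1.78), with 10.6% of all genes higher and 3.84% lower; without the BPA libraries the call on Nefh was lost and 0 members were lower, and without the BPS libraries 2 were. At day 12 against day 9, 31 rose and 0 fell (median 1.74; unadjusted p under 0.05 and lower, 0), with 7.34% of all genes higher and 2.25% lower; DESeq2 also called 31 higher and 0 lower. At day 20 against day 12, 25 rose and 3 (Nefm, Myt1 and Scrt2) fell (median 1.82), with 17.4% of all genes higher and 8.66% lower. On log2(FPKM + 1) with limma 8 members rose at day 4 and 4 fell at day 6. The median over all genes tested lay between -0.02 and 0.03 in these steps and in those of the neural branch.

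In the neural branch the whole list moved in the second step. In RA EBs against EBs of day 4, 29 rose and 3 (Nefh, Prph and Sv2a) fell (median 2.65), where 18.7% of all genes tested were called higher and 15.5% lower. In NPCs against RA EBs all 38 rose (median 3.14), against 17.8% of all genes higher and 17.1% lower, with log2 differences between 1.62 (Nefm) and 6.33 (Chl1). NPCs of day 10 also exceeded the mean of EBs of days 9 and 12 in all 38 (median 3.30), with 16.1% of all genes higher and 22.2% lower. Against EBs of day 20, 14 were higher in NPCs and 3 (Stmn4, Stx1a and Syn2) lower (median 0.61, all genes -0.05), with 9.79% of all genes higher and 23.8% lower. The genes higher in NPCs than at day 20 were led by Nefm (5.22 ± 0.14), Scrt2 (3.90 ± 0.22), Myt1 (3.59 ± 0.21), Nefl (3.10 ± 0.14) and Scrt1 (2.95 ± 0.21). Those that did not differ by a call included Snap25, Gap43, Mapt, Syt1 and Syp.

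Other genes of the same machinery were also called in these steps. Of 29 further cytoskeletal genes, 13 rose at day 9, 18 at day 12 and 17 at day 20 against the stage before, and 28 in NPCs against RA EBs, with 0 called lower in each. Of all genes tested, 10.6%, 7.34%, 17.4% and 17.8% were called higher in these 4 steps. Day 20 was led by Rtn1, a reticulon of the endoplasmic reticulum (437 FPKM at day 20 against 52 FPKM at day 12, log2 difference 2.98 ± 0.13), Dclk1, a doublecortin-like kinase (69.8 FPKM at day 20 against 13.1 FPKM at day 12, log2 difference 2.38 ± 0.12), and Tubb2a, a beta-tubulin (409.9 FPKM at day 20 against 85.6 FPKM at day 12, log2 difference 2.15 ± 0.10). Of 40 further synaptic genes, 11 rose and 1 (Camk2b) fell at day 9, 23 rose at day 12, 33 rose and 1 (Syt2) fell at day 20, and 35 rose in NPCs against RA EBs. Here day 20 was led by Dlg2, a postsynaptic scaffold (6.55 FPKM at day 20 against 0.188 FPKM at day 12, log2 difference 4.88 ± 0.20), and Camk2b, a calcium-dependent kinase subunit (50.1 FPKM at day 20 against 1.962 FPKM at day 12, log2 difference 4.55 ± 0.13). NPCs were led by Rab3c, a vesicle GTPase (36 FPKM in NPCs against 1.08 FPKM in RA EBs, log2 difference 5.11 ± 0.16). Among 11 repressors and splicing factors, the splicing repressor Ptbp1 was lower at day 20 than at day 12 (66.3 FPKM at day 20 against 154 FPKM at day 12, log2 difference -1.32 ± 0.06) and the neuronal splicing factor Rbfox1 higher (22.1 FPKM at day 20 against 0.98 FPKM at day 12, log2 difference 4.42 ± 0.15). All of these had adjusted p values at or under 2.4e-16 by edgeR.

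Cultures with a bisphenol were compared with DMSO at each stage, with the 3 bisphenol libraries as 1 class against a single DMSO library that was assumed to vary like the others. Values in parentheses after library levels are log2 differences, bisphenols minus DMSO, ± SE. In ESCs 0 of the 38 genes were called (0% of all genes higher, 0% lower; members at an unadjusted p under 0.05, 1). In EBs of day 4 the count was again 0 (0.032% of all genes higher, 0.531% lower; unadjusted, 2), and without the BPA libraries 1 was lower. At day 6 Gap43 was lower, as the single call (1.55% of all genes higher, 1% lower). Gap43 had 24.3, 20.4 and 17.4 FPKM in the BPA, BPF and BPS libraries, against 36.7 FPKM in the DMSO library, a log2 difference of -0.85 ± 0.17, adjusted p = 0.00502. The call was lost without the BPF or the BPS libraries, and without the BPA libraries 2 members were higher. DESeq2 called 0 members in ESCs and 0 at day 4.

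At day 9, 15 of the 38 genes were lower with bisphenols and 0 higher, with 4.01% of all genes higher and 3.48% lower (median of the members -0.52, of all genes 0.00). The 15 were Syt1, Rbfox3, Scrt1, Celf4, Scrt2, Myt1, Stmn4, Syp, Tubb3, Elavl3, Snap25, Stmn2, Gap43, Elavl4 and Ncam1. Syt1 had 0.98, 0.52 and 0.6 FPKM with BPA, BPF and BPS, against 1.71 FPKM with DMSO (-1.28 ± 0.26, adjusted p = 0.00183). Rbfox3 had 1.99, 1.94 and 1.29 FPKM with BPA, BPF and BPS, against 4.28 FPKM with DMSO (-1.26 ± 0.21, adjusted p = 0.00029). Scrt1 had 1.76, 1.19 and 1.12 FPKM with BPA, BPF and BPS, against 2.97 FPKM with DMSO (-1.13 ± 0.22, adjusted p = 0.00194). In these 3 genes every bisphenol library lay below the DMSO library. Celf4 had 3.35, 2.04 and 2.73 FPKM with BPA, BPF and BPS, against 5.51 FPKM with DMSO (-1.03 ± 0.20, adjusted p = 0.00128). Scrt2 had 1.54, 1.12 and 1.39 FPKM with BPA, BPF and BPS, against 2.72 FPKM with DMSO (-1.01 ± 0.22, adjusted p = 0.0036). Tubb3, the most abundant of the 15 per length, had 104, 80.5 and 64.5 FPKM with BPA, BPF and BPS, against 148 FPKM with DMSO (-0.85 ± 0.14, adjusted p = 0.000258). The DMSO library was the highest of the 4 for these as well. The count was 24 without the BPA libraries, 9 without the BPF libraries and 11 without the BPS libraries.

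At day 12, 11 were lower and 2 higher, with 10.1% of all genes higher and 8.79% lower (median -0.23, all genes -0.05). The lower genes were Rbfox3, Scrt2, Myt1l, Scrt1, Myt1, Elavl4, Elavl3, Tubb3, Celf4, Dcx and Map2, and no vesicle release gene was among them. Rbfox3 had 5.29, 4.7 and 4.99 FPKM with BPA, BPF and BPS, against 9.25 FPKM with DMSO (-0.88 ± 0.17, adjusted p = 0.00051). Scrt2 had 16.5, 15.8 and 16.9 FPKM with BPA, BPF and BPS, against 28.4 FPKM with DMSO (-0.83 ± 0.12, adjusted p = 1.75e-05). Myt1l had 0.99, 0.78 and 0.82 FPKM with BPA, BPF and BPS, against 1.45 FPKM with DMSO (-0.78 ± 0.21, adjusted p = 0.0113). In each the DMSO library stood above the others. Scrt1 had 17.1, 15.3 and 16.2 FPKM with BPA, BPF and BPS, against 26.5 FPKM with DMSO (-0.75 ± 0.13, adjusted p = 0.000212). Myt1 had 21.3, 15.8 and 14.4 FPKM with BPA, BPF and BPS, against 27.6 FPKM with DMSO (-0.73 ± 0.14, adjusted p = 0.000438). The pair of genes that rose was Chl1 and Prph, each lowest in the DMSO library. Chl1 had 1.72, 1.39 and 1.32 FPKM with BPA, BPF and BPS, against 0.45 FPKM with DMSO (1.64 ± 0.30, adjusted p = 0.000338). Prph had 9.43, 7.93 and 9.22 FPKM with BPA, BPF and BPS, against 4.02 FPKM with DMSO (1.09 ± 0.27, adjusted p = 0.0049). The 10 peripheral neuron and neural crest markers, of which Prph is 1, summed to 57.7, 57.5 and 63 FPKM with BPA, BPF and BPS, against 40.5 FPKM with DMSO at this stage. Of these 10, Prph included, 6 were above DMSO in all 3 bisphenol libraries and 2 were below it. The count of lower genes was 18 without the BPA libraries, 7 without the BPF libraries, 8 without the BPS libraries and 3 with limma on log2(FPKM + 0.1).

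At day 20, 17 were lower and 0 higher, with 9.14% of all genes higher and 10.5% lower (median -0.41, all genes -0.06). The 17 were Scrt1, Myt1, Scrt2, Prph, Elavl3, Rbfox3, Myt1l, Dcx, Ina, Syt4, Stmn4, Elavl4, Celf4, Nrcam, Bcl11a, Map2 and Sv2a. Scrt1 had 11.6, 9.97 and 14.2 FPKM with BPA, BPF and BPS, against 22.9 FPKM with DMSO (-0.999 ± 0.13, adjusted p = 9.85e-06). Myt1 had 4.75, 4.45 and 4.34 FPKM with BPA, BPF and BPS, against 8.27 FPKM with DMSO (-0.93 ± 0.17, adjusted p = 0.000223). Scrt2 had 5.67, 4.75 and 6 FPKM with BPA, BPF and BPS, against 9.89 FPKM with DMSO (-0.91 ± 0.15, adjusted p = 8.57e-05). All bisphenol libraries of these genes lay below the DMSO library. Prph, higher with bisphenols at day 12, was here at 12.1, 16.2 and 16.6 FPKM with BPA, BPF and BPS, against 26.5 FPKM with DMSO (-0.88 ± 0.20, adjusted p = 0.00293). The 10 peripheral neuron and neural crest markers summed to 42.2, 44.4 and 51 FPKM with BPA, BPF and BPS, against 49.3 FPKM with DMSO. Of them, 4 were above DMSO in all 3 bisphenol libraries and 2 were below it. Elavl3 had 126, 106 and 129 FPKM with BPA, BPF and BPS, against 192 FPKM with DMSO (-0.73 ± 0.13, adjusted p = 0.000168). The count was 28 without the BPA libraries, 10 without the BPF libraries, 14 without the BPS libraries and 5 with limma on log2(FPKM + 0.1). Across days 9, 12 and 20, 7 genes were called lower at all 3 days: Celf4, Elavl3, Elavl4, Myt1, Rbfox3, Scrt1 and Scrt2. A further 14 members, among them Nefl, Nefm, Nefh, Mapt, Stmn3, Vamp2, Stx1a and both synapsins, were called lower at none of these days. Of all genes tested, 3.48% were lower at day 9, so no more than that can be lower at all 3 days. The exact share, and the share of all genes lower at none of these days, were not derived.

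**Figure D3:**
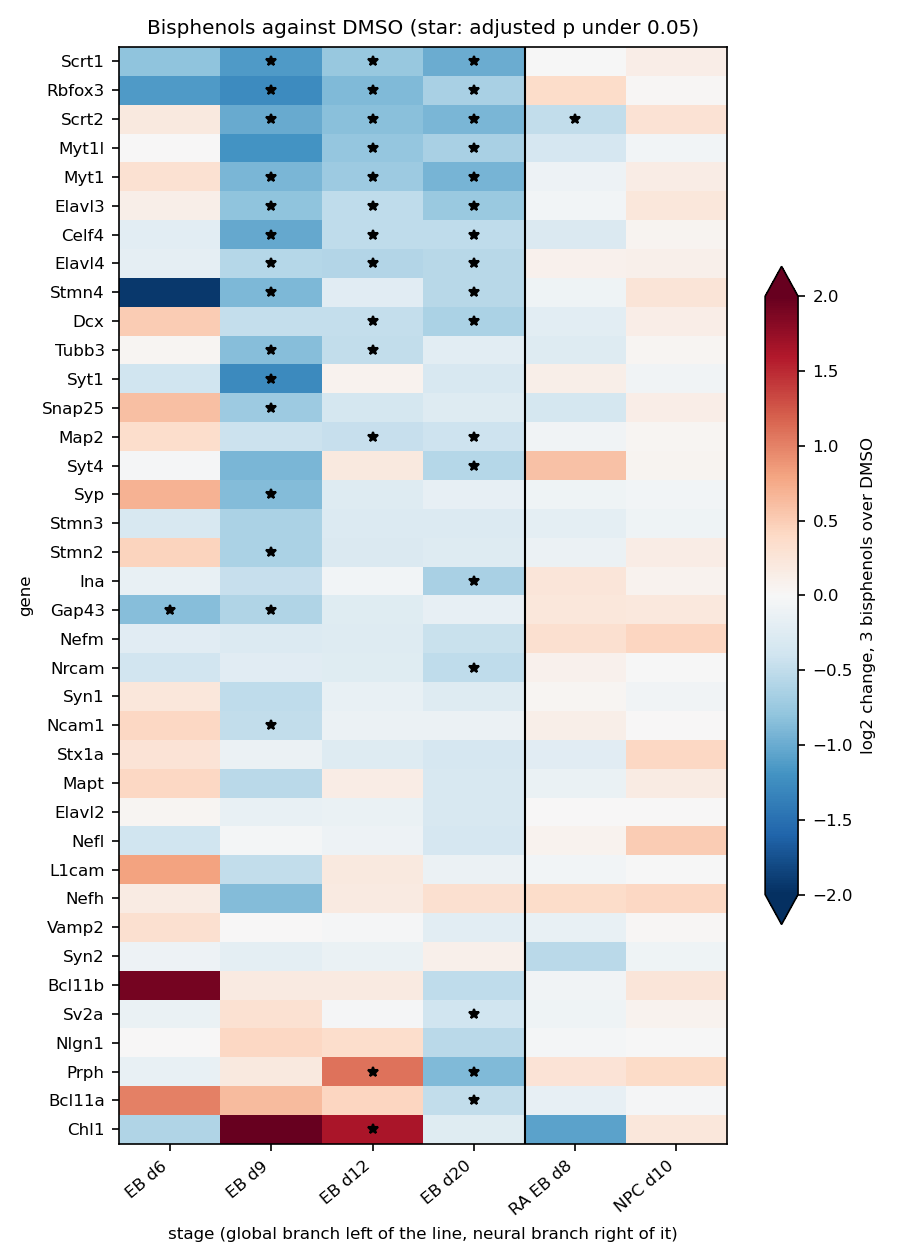
Log2 difference between the 3 bisphenol libraries and the DMSO library for the 38 genes at EB days 6 to 20, in RA EBs and in NPCs. Genes are sorted down the page by their mean log2 difference over days 9, 12 and 20, so similar rows lie together by construction. The colour scale is limited to 2 in either direction and a star marks an adjusted p under 0.05 by edgeR. Stars of lower level gather at days 9 (15), 12 (11) and 20 (17), and Chl1 and Prph are the starred higher cells at day 12.

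Summed levels of markers of other cell types also differed with treatment at the same stages, and their part in the differences above was not tested. Ranges are over the 3 bisphenol libraries, and genes are counted as above or below DMSO where all 3 libraries were. At day 6, the day of the Gap43 call, the fibroblast and mesenchyme markers summed to 43.4 to 66.9 FPKM with bisphenols, against 118 FPKM with DMSO (1 of 8 above and 5 below DMSO). The neural progenitor markers summed to 422 to 485 FPKM with bisphenols, against 536 FPKM with DMSO at that day (1 of 10 above and 6 below DMSO). The endoderm markers summed to 58.2 to 68.3 FPKM with bisphenols, against 31.9 FPKM with DMSO (2 of 8 above and 2 below DMSO). At day 6 the mesenchyme and progenitor sums were thus below DMSO and the endoderm sum above it. The fibroblast and mesenchyme sum at day 9 was 201 to 236 FPKM with bisphenols, against 196 FPKM with DMSO (5 of 8 above and 1 below DMSO). It was 458 to 487 FPKM with bisphenols, against 33.8 FPKM with DMSO at day 12 (7 of 8 above and 0 below DMSO). At day 20 it was 1333 to 1501 FPKM with bisphenols, against 162 FPKM with DMSO (8 of 8 above and 0 below DMSO). This sum lay below DMSO at day 6 and above it from day 9 on. The cardiac markers, whose sum increased in the order BPA, BPF, BPS at all 3 later days, summed to 57.5 to 204 FPKM with bisphenols, against 41.8 FPKM with DMSO at day 9 (6 of 8 above and 0 below DMSO). Their sum was 53.5 to 404 FPKM with bisphenols, against 5.76 FPKM with DMSO at day 12 (8 of 8 above and 0 below DMSO). It was 25.8 to 130.3 FPKM with bisphenols, against 12 FPKM with DMSO at day 20 (3 of 8 above and 0 below DMSO). The endothelial sums had the same order and were also above DMSO with every bisphenol. They were 16.3 to 61.4 FPKM with bisphenols, against 7.17 FPKM with DMSO at day 9 (7 of 8 above and 0 below DMSO). At day 12 they were 15.2 to 34.1 FPKM with bisphenols, against 4.02 FPKM with DMSO (8 of 8 above and 0 below DMSO). At day 20 they were 14.9 to 20.6 FPKM with bisphenols, against 9.88 FPKM with DMSO (6 of 8 above and 1 below DMSO). The endoderm markers differed by day. Their sum was 67.5 to 142 FPKM with bisphenols, against 51.7 FPKM with DMSO at day 9 (4 of 8 above and 0 below DMSO). At day 12 it was 57.2 to 294 FPKM with bisphenols, against 37 FPKM with DMSO (6 of 8 above and 0 below DMSO). At day 20 it was 63.5 to 226 FPKM with bisphenols, against 102 FPKM with DMSO (2 of 8 above and 1 below DMSO), where BPF lay above DMSO and BPA and BPS below it. The neural progenitor markers were below DMSO at days 9 and 12 and mixed at day 20. Their sum was 838 to 897 FPKM with bisphenols, against 1139.6 FPKM with DMSO at day 9 (0 of 10 above and 10 below DMSO). At day 12 it was 1594 to 1649 FPKM with bisphenols, against 2035 FPKM with DMSO (0 of 10 above and 10 below DMSO). At day 20 it was 1084 to 1180.1 FPKM with bisphenols, against 966 FPKM with DMSO (4 of 10 above and 4 below DMSO). The oligodendrocyte lineage markers were likewise lower in sum at days 9 and 12. They summed to 19.7 to 22.7 FPKM with bisphenols, against 35.6 FPKM with DMSO at day 9 (0 of 8 above and 4 below DMSO). At day 12 they summed to 24.2 to 30.8 FPKM with bisphenols, against 42 FPKM with DMSO (2 of 8 above and 4 below DMSO). At day 20 they summed to 51.9 to 54.1 FPKM with bisphenols, against 51.8 FPKM with DMSO (1 of 8 above and 3 below DMSO). Olig2, a factor of oligodendrocyte and motor neuron progenitors, was lower with bisphenols by edgeR at day 9 (-1.85 ± 0.27, adjusted p = 5.82e-05) and day 12 (-1.62 ± 0.23, adjusted p = 9.51e-06). Of the same list, Pdgfra was higher at day 12, with 6.21 FPKM with bisphenols against 2.36 FPKM with DMSO (1.34 ± 0.32). Mbp was lower with bisphenols at day 9 (-0.73 ± 0.14) and day 12 (-0.56 ± 0.15). The astrocyte markers summed to 66.8 to 72.7 FPKM with bisphenols, against 79 FPKM with DMSO at day 9 (1 of 8 above and 3 below DMSO). At day 12 their sum was 61.5 to 68.2 FPKM with bisphenols, against 58.7 FPKM with DMSO (4 of 8 above and 2 below DMSO). It was 529 to 536 FPKM with bisphenols, against 504 FPKM with DMSO at day 20 (5 of 8 above and 1 below DMSO). There Aqp4 (0.96 ± 0.19) and Gja1 (0.48 ± 0.10) were higher with bisphenols and Slc1a2 (-0.69 ± 0.12) was lower. S100b, another astrocyte marker, was not listed in any day-12 library. Each comparison rests on 1 DMSO library per stage, so a property of that library and an effect of treatment cannot be told apart.

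Of the 29 further cytoskeletal genes, 14 were lower at day 9, 16 at day 12 and 15 at day 20, with 0, 0 and 1 (Dync1i1) higher with bisphenols. Of all genes tested, 3.48% were lower and 4.01% higher at day 9, 8.79% lower and 10.1% higher at day 12, and 10.5% lower and 9.14% higher at day 20. At day 9, Crmp1, a mediator of semaphorin signals, had 19 FPKM with bisphenols against 34.7 FPKM with DMSO, log2 difference -0.89 ± 0.17, and the tubulin gene Tubb2b had 203 FPKM with bisphenols against 344 FPKM with DMSO, log2 difference -0.78 ± 0.12. At day 12, Dpysl3, of the same family as Crmp1, had 112 FPKM with bisphenols against 164 FPKM with DMSO, log2 difference -0.59 ± 0.13. At day 20, Ank3, which builds the axon initial segment, had 12.5 FPKM with bisphenols against 21.1 FPKM with DMSO, log2 difference -0.78 ± 0.11. Of 40 further synaptic genes, 8, 10 and 18 were lower and 0, 1 and 0 higher at days 9, 12 and 20. At day 20, Lrrtm2, a postsynaptic adhesion protein, had 5.08 FPKM with bisphenols against 9.02 FPKM with DMSO, log2 difference -0.89 ± 0.25, and Nrxn3, a neurexin, had 9.02 FPKM with bisphenols against 14.7 FPKM with DMSO, log2 difference -0.74 ± 0.14. At day 12 the neuronal splicing factor genes Srrm4 and Nova2 were lower: Srrm4 had 6.62 FPKM with bisphenols against 10.2 FPKM with DMSO, log2 difference -0.67 ± 0.13, and Nova2 had 13.5 FPKM with bisphenols against 20.1 FPKM with DMSO, log2 difference -0.61 ± 0.10. The largest adjusted p of these genes was 0.0137 by edgeR (Lrrtm2). The levels are means over the bisphenol libraries and the level of the DMSO library.

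In the neural branch few members were called. In RA EBs 1 gene, Scrt2, was lower (0.902% of all genes higher, 1.44% lower), with 11.1, 12.3 and 11.7 FPKM with BPA, BPF and BPS, against 17.1 FPKM with DMSO (-0.49 ± 0.13, adjusted p = 0.0418); the call was lost without the BPA or the BPS libraries or without a filter, and without the BPA libraries 1 other member was higher. In NPCs 0 of the 38 genes were called (0.313% of all genes higher, 1.94% lower; members at an unadjusted p under 0.05, 3, all higher), and without the BPA libraries 3 were higher. DESeq2 called 0 in NPCs. Tubb3 in NPCs had 1042, 1057 and 1103 FPKM with BPA, BPF and BPS, against 1040.2 FPKM with DMSO, and Rbfox3 had 30.7, 29.3 and 30.1 FPKM with BPA, BPF and BPS, against 30.0 FPKM with DMSO, so the libraries of these genes spanned narrow ranges. The fibroblast and mesenchyme markers in NPCs summed to 205, 178 and 208 FPKM with BPA, BPF and BPS, against 438 FPKM with DMSO, with 8 of 8 genes below DMSO in every bisphenol library.

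Averaged over days 6, 9, 12 and 20, 14 members were lower with bisphenols and 0 higher, with 13.4% of all genes higher and 12.8% lower (median -0.23, all genes -0.02). The largest were Rbfox3 (-0.98 ± 0.13, adjusted p = 2.62e-06), Scrt1 (-0.92 ± 0.34, adjusted p = 0.0481) and Stmn4 (-0.91 ± 0.24, adjusted p = 0.00767). Day 6 enters this average and the interaction below, and there Scrt1 had 1 to 3 and Stmn4 1 to 9 expected counts per library. In the fit by compound over the same days, Stmn4 differed from DMSO by -0.32 with BPA, -0.64 with BPF and -0.72 with BPS. The part of the low day-6 counts was not tested. Averaged over RA EBs and NPCs, 0 were lower and 1 higher, with 0.384% of all genes higher and 0.908% lower. That gene was Nefm (0.37 ± 0.10, adjusted p = 0.0481), with 75.2, 79.1 and 77.7 FPKM with BPA, BPF and BPS, against 64.4 FPKM with DMSO in RA EBs and 187, 268 and 238 FPKM with BPA, BPF and BPS, against 173 FPKM with DMSO in NPCs; without the BPF or the BPS libraries, or with DESeq2-type size factors, the call was lost, and without the BPA libraries 3 members were higher. The difference between the branches was tested by an interaction term. It was negative, that is lower in the global than in the neural branch, for 10 members and positive for 0, with 8.47% of all genes positive and 8% negative. The 10 were Rbfox3 (-1.17 ± 0.18, adjusted p = 5.38e-05), Stmn4 (-0.99 ± 0.27), Gap43 (-0.68 ± 0.13), Nefm (-0.67 ± 0.13), Elavl3 (-0.58 ± 0.15), Elavl4 (-0.57 ± 0.15), Nefl (-0.51 ± 0.15), Syt1 (-0.50 ± 0.17), Ina (-0.49 ± 0.14) and Nrcam (-0.37 ± 0.12). Their number was 15 without the BPA libraries, 4 without the BPF libraries and 6 without the BPS libraries, and 1 member was positive without the BPA or without the BPS libraries. Members lower on average over the global branch numbered 19 without the BPA libraries and 10 without the BPF or the BPS libraries, and 1 was higher without BPA. Myt1l and Nlgn1, with no counts in EBs of day 6, gave no SE in these averages.

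The 3 bisphenols were compared at the same dose of 100 nM over the 16 libraries of EB days 6, 9, 12 and 20, with stage as a term and p adjusted over 14872 genes and 6 pairs together. The bridge between the phenol rings carries methyl groups in BPA, is a bare methylene in BPF and is a sulfonyl group in BPS. The 3 comparisons with DMSO share the same DMSO libraries. With BPA, 4 members were lower and 0 higher than with DMSO (2.21% of all genes higher, 1.41% lower). With BPF, 13 were lower and 0 higher (4.24% of all genes higher, 3.42% lower). With BPS, 14 were lower and 0 higher (4.85% of all genes higher, 3.36% lower). The 4 genes lower with BPA were Scrt1 (-0.83 ± 0.13, adjusted p = 0.00321), Scrt2 (-0.80 ± 0.12, adjusted p = 0.00274), Rbfox3 (-0.73 ± 0.13, adjusted p = 0.00893) and Myt1 (-0.60 ± 0.12, adjusted p = 0.0152). For Scrt1 the difference from DMSO was -1.08 ± 0.13 with BPF and -0.86 ± 0.13 with BPS, and for Rbfox3 it was -1.02 ± 0.14 with BPF and -0.97 ± 0.14 with BPS. The members' median difference from DMSO was -0.14 with BPA, -0.34 with BPF and -0.42 with BPS, where the median over all genes was -0.02 with BPA, -0.03 with BPF and -0.03 with BPS.

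BPA against BPF gave 1 called gene, Elavl4, higher with BPA (0.0403% of all genes higher, 0.074% lower). Its difference was 0.35 ± 0.08, adjusted p = 0.0246 (95% interval 0.20 to 0.50), with 52.2, 43.7, 40.1 and 66.2 FPKM at day 12 with BPA, BPF, BPS and DMSO. BPA against BPS gave 2, higher with BPA (0.114% of all genes higher, 0.524% lower): Dcx by 0.42 ± 0.09, adjusted p = 0.0163 (95% interval 0.25 to 0.59), and Elavl4 by 0.39 ± 0.08, adjusted p = 0.0135 (95% interval 0.24 to 0.54). The Dcx libraries of day 20 had 49.8, 40.7, 34.9 and 62.4 FPKM with BPA, BPF, BPS and DMSO. BPF against BPS gave 0 called members in edgeR, 0 in DESeq2 and, in edgeR, 0 at an unadjusted p under 0.05 (0.00672% of all genes higher, 0.0336% lower). The 95% intervals of that difference were -0.11 to 0.20 for Elavl4, -0.04 to 0.30 for Dcx and -0.33 to 0.24 for Rbfox3, which leave room for differences in either direction. The estimate was positive for 36 of 38 members in BPA against BPF and for 31 of 38 in BPA against BPS, with medians of 0.22 and 0.21 (these 2 comparisons share the BPA libraries), and a median of 0.01 in BPF against BPS; over all genes these medians were, in the same order, 0.01, 0.01 and -0.00. These counts moved with single stages. The members called with BPA against DMSO numbered 8 without day 6 and 1 without day 12. Those with BPF numbered 7 without day 9, 6 without day 12 and 8 without day 20, and those with BPS 7, 5 and 9. In BPA against BPF the number was 3 without day 6 and 0 without day 9, 12 or 20, and in BPA against BPS 4 without day 6 and 0 without day 9, 12 or 20.

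**Figure D4:**
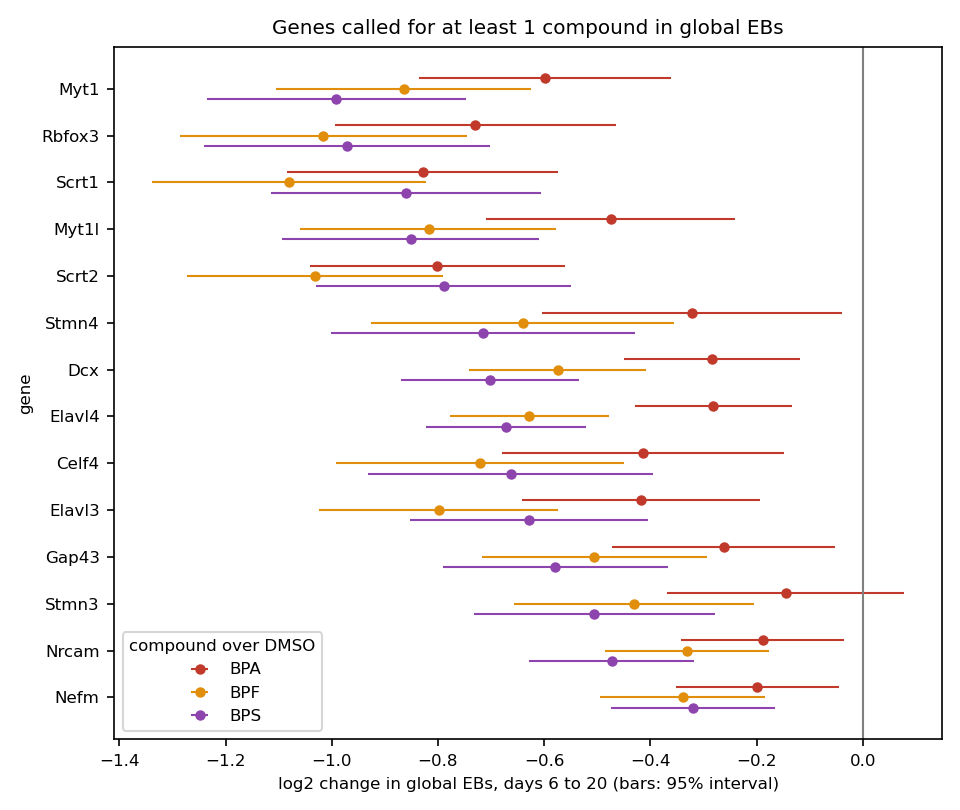
Log2 difference from DMSO over EB days 6 to 20 for BPA, BPF and BPS in the 14 members called with any of them. Bars are nominal 95% intervals by a normal approximation to the edgeR fit, with 1 row per gene and a vertical line at no difference. All points lie left of the line, and the BPA points lie nearest to it in most genes.

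The deposited gene length, which RSEM averages over the transcripts of a gene by their abundance, gave a readout other than the level; means are ± SD over 4 libraries. It was compared for genes with at least 20 expected counts in each of the 8 libraries and a length that varied between them, 18 members among them. Genes with 1 fixed length, such as Tubb3, Stmn2 and Gap43, were left out at any count. Between days 20 and 12, 3 of 18 members grew longer and 0 shorter, with 4.52% of the 3851 genes tested longer and 3.35% shorter. Between NPCs and RA EBs 4 of 18 grew longer and 0 shorter, with 7.49% of 3591 genes longer and 4.93% shorter. The members were Map2, Myt1 and Ncam1 in both comparisons and Nrcam in the neural one, all by limma on log2 length. Map2 had 6522, 6514, 6391 and 6428 bases at day 20 with BPA, BPF, BPS and DMSO, against 5849.8, 5819, 5843 and 5899 bases at day 12 (ratio 1.1, adjusted p = 0.000243). In NPCs it had 6435, 6473, 6522 and 6571 bases, against 5809, 5761, 5765 and 5699.5 bases in RA EBs (ratio 1.13, adjusted p = 3.44e-05). No library of the later stage overlapped with the earlier one. Map2 spans chr1:66175202-66442583 on build GRCm38.p6 and Ncam1 chr9:49502129-49799393. Ncam1 averaged 6754 ± 20.6 bases at day 20 and 6560.4 ± 27.6 at day 12 (ratio 1.03, adjusted p = 0.00128), and 6934 ± 4.41 in NPCs and 6638 ± 29.8 in RA EBs (ratio 1.04, adjusted p = 4.03e-05). Myt1 averaged 5507 ± 27 bases at day 20 and 5349 ± 11.4 at day 12 (ratio 1.03, adjusted p = 0.00143), and 5454 ± 7.35 in NPCs and 5358 ± 10.4 in RA EBs (ratio 1.02, adjusted p = 0.00015). Nrcam averaged 7444 ± 13.5 bases in NPCs and 7396 ± 14 in RA EBs (ratio 1.01, adjusted p = 0.0178). Of the RefSeq transcripts listed for Map2, GENCODE gives coding regions of 1828 residues for 1 and of 498 and 467 residues for the others, the long and short forms of the protein. Of the 4 listed for Ncam1, it gives 848, 849 and 725 residues, and 1 had no GENCODE match. The share of each form was not derived, since a mean length does not fix it.

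**Figure D5:**
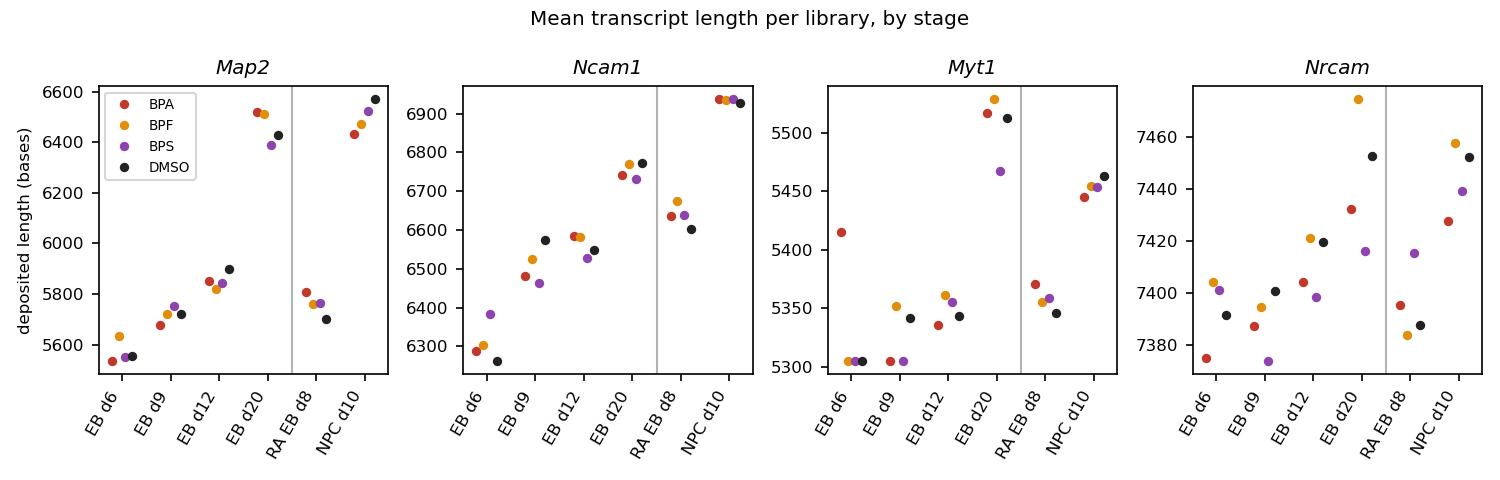
Deposited mean transcript length in bases of Map2, Ncam1, Myt1 and Nrcam in each library at EB days 6 to 20, in RA EBs and in NPCs. Map2 averaged 6464 bases at day 20 and 5853 at day 12, and 6500 bases in NPCs and 5759 in RA EBs.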

How the data were processed

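Per the labels' protocols, Trizol and a column kit were used to purify RNA, and a sequencing service made the libraries. The authors deposited, per library, an expected count (estimated reads per gene, not normalised), an FPKM and a gene length in bases, in the column layout of RSEM per the file headers. Build mm10 and the tools HISAT, Bowtie2 and RSEM appear in the submitters' processing notes, which give no role or version. The authors' deposited FPKM divides by that length, so a change in transcript use moves it as well. The lowest FPKM listed was 0.01, and unlisted genes were set to 0. Whole numbers made up 78.8% to 80.6% of the counts per library.

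Expected counts were rounded and analysed with edgeR 4.0.16 in R 4.3.3 (TMM factors 0.923 to 1.14, genes at 1 CPM or more in at least 4 libraries, prior count 1): stages in a model with stage alone (24 residual degrees of freedom), bisphenols as 1 class in a model of stage by class (16), and compounds in 16 libraries with stage and treatment (9 residual degrees of freedom, 14872 genes, TMM factors 0.926 to 1.07). The deposited length was compared on a log2 scale with limma 3.58.1. Alternatives were DESeq2 1.42.0, other filters and size factors, limma on log2 FPKM, and leaving out libraries. Summaries and figures used Python 3.11.15, pandas 2.3.3, numpy 2.4.6 and matplotlib 3.10.9. SEs were computed from edgeR's log2 difference and its F statistic. Intervals are nominally at 95% confidence, come from a normal approximation with that SE, and cover these libraries only. They are narrower than the F test implies. For Elavl2 with BPS against DMSO the interval was -0.42 to -0.004, with an unadjusted p of 0.066 by the edgeR F test. Simulated counts were used to test the fits. A gene was recovered at an adjusted p under 0.05 in the right direction, without the size threshold of the stage calls. The fits recovered 91% of the genes given a log2 change of 1 between EB days 9 and 6. The share was 78% for bisphenols at day 12 and 87% for BPA against DMSO, and 9, 8 and 6 unchanged genes were called. Changes were placed only in genes above a minimum mean count. Apart from these changes, each gene was simulated at its mean over all libraries, without stage differences and with the trended spread. Recovery of genes near 0 at some stages was thus not tested. All libraries were simulated with the same spread, so the assumption on the single DMSO library was not tested. The members and the other gene lists were chosen with earlier results of these data known. Library values are given for 16 lead members, for the 5 largest called bisphenol differences per direction and for members with a called length change; from other lists, genes were taken from the 3 largest called differences with a mean of 5 FPKM or more in the higher group, in the steps described.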

Additional observations from a re-analysis of the deposited data

Results flagged for a closer look

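Within a group of 4 libraries, 6 of the 103 groups tested over 16 lead members held a library far from the others, where chance gives about 1 in 20. These were the DMSO library of EBs of day 12 for Rbfox3 (9.25 FPKM), the DMSO library of day 4 for Stmn2 (17.72 FPKM), the BPA library of day 9 for Prph (2.06 FPKM), the BPA library of NPCs for Syp (76.23 FPKM), the DMSO library of RA EBs for Gap43 (64.12 FPKM) and the BPF library of day 12 for Ncam1 (22.74 FPKM). The Rbfox3 library is the one on which its called difference at day 12 rests.

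The bisphenol difference was not the same in both branches for 10 members by the interaction test. The log2 difference in the global branch minus that in the neural branch was -1.174 for Rbfox3, -0.991 for Stmn4, -0.681 for Gap43, -0.669 for Nefm, -0.577 for Elavl3, -0.566 for Elavl4, -0.511 for Nefl, -0.504 for Syt1, -0.491 for Ina and -0.369 for Nrcam. The branches differ in day, in retinoic acid and in culture form as well, which cannot be told apart here.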

How the results depend on the processing

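No called value changed direction in any alternative run. With limma on log2(FPKM + 1), members higher at day 4 numbered 8, lower at day 6 against day 4 numbered 4, lower at day 9 against day 6 numbered 0, higher with bisphenols over the global branch 1 and over the neural branch 0. With limma on log2(FPKM + 0.1), 0 were lower at day 9 against day 6, and with bisphenols 1 was higher and 3 lower at day 6, 1 higher at day 9, 3 lower at day 12, 5 lower at day 20, 0 lower in RA EBs, 2 higher over the global branch, 0 higher over the neural branch and 1 positive in the interaction. Without a filter, 2 were lower at day 9 against day 6 and 0 lower in RA EBs with bisphenols. DESeq2 gave 2 lower in RA EBs and 1 positive in the interaction. DESeq2-type size factors gave 0 higher over the neural branch.

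Leaving out the libraries of 1 treatment in turn gave these ranges. Members lower at day 9 against day 6 ran from 0 to 2. With bisphenols, members lower ran from 0 to 1 at day 4, 0 to 1 at day 6, 9 to 24 at day 9, 7 to 18 at day 12, 10 to 28 at day 20, 0 to 1 in RA EBs and 4 to 15 in the interaction. Members higher ran from 0 to 2 at day 6, 0 to 1 in RA EBs, 0 to 3 in NPCs, 0 to 1 over the global branch, 0 to 3 over the neural branch and 0 to 1 in the interaction. Leaving out 1 stage in turn, members called ran from 1 to 8 for BPA against DMSO, 6 to 18 for BPF against DMSO, 5 to 16 for BPS against DMSO, 0 to 3 for BPA against BPF and 0 to 4 for BPA against BPS. The cause of these shifts was not tested; fewer libraries also enter each fit. Over single genes, 244 of the values recomputed under an alternative lost their call, 13 onset counts moved by over 1.5 times with the FPKM threshold, and 3433 values did neither.

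Each treatment has 1 library per stage, so no bisphenol comparison at a stage has a second DMSO library. Genes under 1 FPKM rest on few reads. With treatment as an added term, which compares stages within treatments, every count of members called in a stage step stayed within 1.5 times, and of the single values 248 stayed on the same side of the threshold and 1, Stx1a in NPCs against day 20 (-0.98), lost it. No fit by replicate number was made, since the labels number no replicates.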
